A study of Mus musculus with 22 samples.

Results

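The HIF-induced oxygen response genes examined here are 10 mouse genes: Vegfa, Hilpda, Higd1a, Fam162a, Ero1a, Egln3, Egln1, P4ha1, Bnip3 and Ndrg1. Each was represented by its brightest probe, on average across the 22 samples, among array probes annotated to that gene alone. All 10 had such a probe, out of 12393 genes measured in this way. The genes were chosen by measured values in part: their stretched minus shortened differences pointed opposite ways in the 2 settings for several of them. These stretch differences are therefore given as a description and carry no test.

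The study measured RNA of loose connective tissue lying beneath the trunk skin of mice, all C57BL/6 males with body weights of 19 to 24 g. A stretched and a shortened piece came from each animal, assigned at random. The groups were ex vivo stretched and ex vivo shortened tissue (4 animals, tissue held outside the body) and in vivo stretched and in vivo shortened tissue (7 animals, tissue held in the living mouse). No group carried an allele or a drug in the labels, and the stretching force, its length of time and the animals' age are not given in the sources used here. Values are log2 signals of a whole piece of tissue, so fewer cells of a type and less RNA per cell cannot be told apart.

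Hypoxia-inducible factor (HIF) is a transcription factor made of an oxygen-sensitive alpha subunit and the constant partner ARNT. With oxygen at hand, prolyl hydroxylases of the EGLN family mark the alpha subunit, and the VHL ubiquitin ligase has it destroyed. With little oxygen the alpha subunit persists, binds DNA at a short core motif and turns on genes for vessel growth, anaerobic metabolism and the trimming of mitochondria. Among its targets are Egln1 and Egln3 themselves, which makes the response limit itself.

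The motif that HIF binds is a core of 5 bases, ACGTG or GCGTG, and promoter windows from 250 bases before to 50 bases after each start site were searched for both on both strands. RefSeq windows on GRCm38.p6 were found for 9 of the 10 genes, all except Ndrg1. Of these 9 genes all had ACGTG in at least 1 window, against 21.8% of all 27025 genes with a window and 26.9% of those measured on the arrays. GCGTG was found in 8 of the 9 genes, against 35.2% of all genes and 50.2% of those measured on the arrays. Vegfa counts for both cores only through its downstream start, at chr17:46025114-46025413. The window of its upstream start, at chr17:46032328-46032627, held neither core. Windows of the 9 genes were rich in CpG, with 10 to 60 (median 27) where all windows had a median of 7. Among all windows with 10 to 60 CpG, 28% held ACGTG and 56.6% held GCGTG, against 9 of 11 windows of these genes for either core. The 2 windows of Hilpda overlap, and 1 GCGTG core is counted in both. The ACGTG core of Bnip3 is palindromic with a further C before it (CACGTG), so it counts on both strands, and 2 GCGTG cores of Higd1a share a base. A match shows only that these letters stand in the window.

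Printed here are the windows of Egln3, Hilpda, Ero1a, Fam162a and Egln1. By the probe used, the first 4 had the largest differences between the settings and Egln1 the smallest. The windows are written 5′ to 3′ on the gene's strand, with both cores in capitals on either strand (CACGT and CACGC are the reverse forms). The window of Egln3 is at chr12:54203825-54204124, minus strand, the second start of Hilpda at chr6:29272376-29272675, plus strand, Ero1a at chr14:45318523-45318822, minus strand, Fam162a at chr16:36071512-36071811, minus strand, and Egln1 at chr8:124949205-124949504, minus strand.
Egln3: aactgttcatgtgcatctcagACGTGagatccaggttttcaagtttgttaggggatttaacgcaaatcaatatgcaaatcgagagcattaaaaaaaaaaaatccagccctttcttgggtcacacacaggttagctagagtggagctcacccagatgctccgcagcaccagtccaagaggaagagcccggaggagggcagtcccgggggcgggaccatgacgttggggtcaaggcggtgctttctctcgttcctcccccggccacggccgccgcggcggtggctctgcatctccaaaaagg
Hilpda: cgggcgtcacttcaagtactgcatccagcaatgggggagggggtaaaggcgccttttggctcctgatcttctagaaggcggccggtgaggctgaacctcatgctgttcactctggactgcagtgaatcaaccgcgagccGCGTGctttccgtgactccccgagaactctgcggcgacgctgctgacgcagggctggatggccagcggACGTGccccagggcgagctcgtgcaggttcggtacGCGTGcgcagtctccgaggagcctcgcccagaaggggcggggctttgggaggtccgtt
Ero1a: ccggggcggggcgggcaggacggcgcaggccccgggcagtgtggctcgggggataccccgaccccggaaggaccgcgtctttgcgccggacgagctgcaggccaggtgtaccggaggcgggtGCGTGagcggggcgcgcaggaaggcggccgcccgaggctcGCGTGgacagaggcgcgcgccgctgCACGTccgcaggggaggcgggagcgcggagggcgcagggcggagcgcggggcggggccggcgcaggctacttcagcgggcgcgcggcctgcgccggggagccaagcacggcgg
Fam162a: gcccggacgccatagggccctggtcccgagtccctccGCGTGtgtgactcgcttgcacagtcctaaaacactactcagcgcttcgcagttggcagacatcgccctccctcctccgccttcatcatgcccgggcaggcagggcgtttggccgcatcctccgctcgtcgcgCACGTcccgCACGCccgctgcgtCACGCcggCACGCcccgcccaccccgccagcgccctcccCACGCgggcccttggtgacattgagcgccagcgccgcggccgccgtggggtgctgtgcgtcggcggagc
Egln1: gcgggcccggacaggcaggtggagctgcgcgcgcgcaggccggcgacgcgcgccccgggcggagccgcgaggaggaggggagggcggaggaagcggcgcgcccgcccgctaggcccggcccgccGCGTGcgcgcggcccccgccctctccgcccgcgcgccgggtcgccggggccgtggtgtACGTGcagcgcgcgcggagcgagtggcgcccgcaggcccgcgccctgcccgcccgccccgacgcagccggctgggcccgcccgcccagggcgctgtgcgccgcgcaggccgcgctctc
The Egln3 window held a single core, at -229 to -225 from the start site, while that of Fam162a held 6, 5 of them GCGTG. In Hilpda the ACGTG core lay at -43 to -39, in Ero1a at -63 to -59, in Fam162a at -81 to -77 and in Egln1 at -68 to -64. By the probe used, the gene with the largest difference and the gene with the smallest thus both had 1 ACGTG core.

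**Figure D1:**
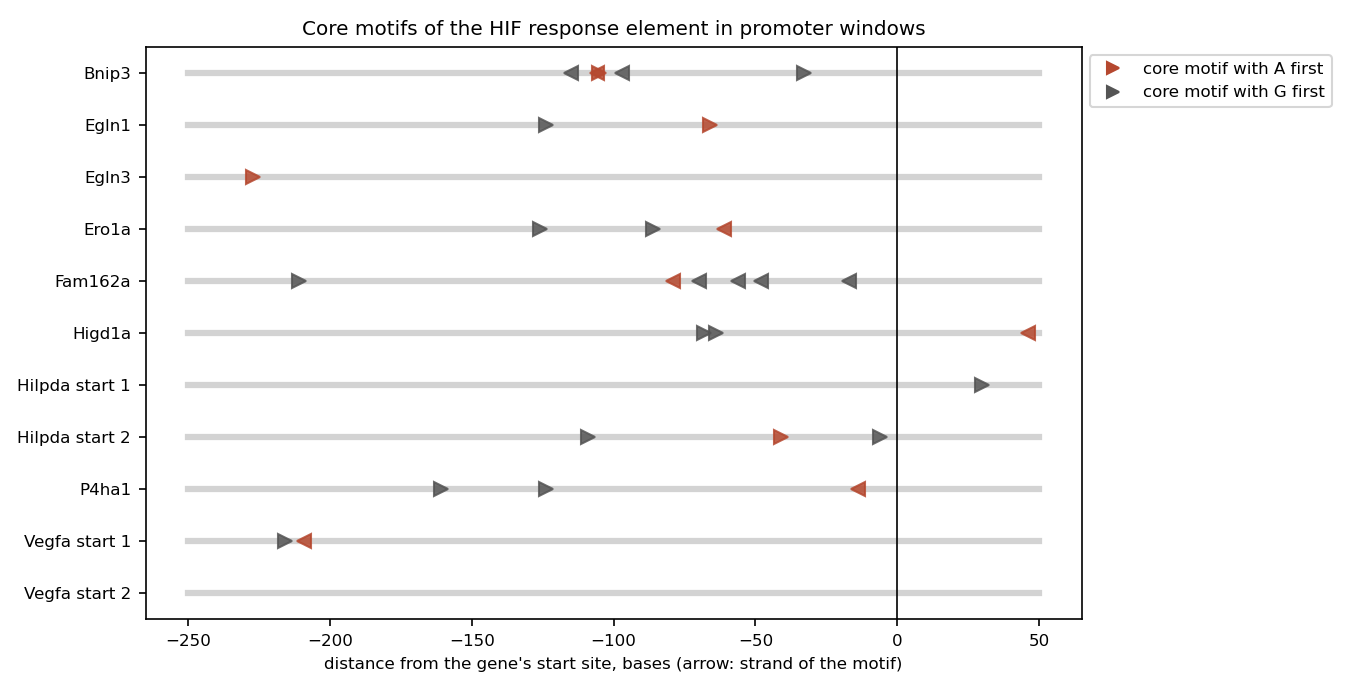
Positions of the 2 core motifs, ACGTG (A first, red) and GCGTG (G first, grey), in promoter windows of 9 genes, as distance from the start site in bases, with an arrow for the strand. Vegfa and Hilpda have 2 start sites each, and 1 window of Vegfa, that of its upstream start, holds neither core.

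The samples were checked before the genes were compared. Fibroblast markers, which define the tissue, were bright in every sample, with a mean log2 signal of 9 genes of 11.53 to 12.01 in ex vivo stretched, 11.65 to 12.07 in ex vivo shortened, 12.70 to 12.99 in in vivo stretched and 12.94 to 13.12 in in vivo shortened pieces, while keratinocyte markers averaged 5.04 to 6.24 over all samples. Sample medians were 6.85 to 6.90 ex vivo and 7.28 to 7.41 in vivo, so the settings look normalized separately, and levels set across settings are centred on each sample's median. The excess of the 3′ over the 5′ Gapdh control probe signal, a sign of RNA breakdown, was 0.06 to 0.91 in ex vivo stretched, 0.05 to 0.17 in ex vivo shortened, 0.12 to 3.61 in in vivo stretched and 0.11 to 2.96 in in vivo shortened pieces. In vivo animals 1 to 3 had low and animals 4 to 7 high values of it, apart from the stretched piece of animal 7. That piece had 0.87, against 2.96 in the shortened piece of the same animal.

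Across the settings, HIF-induced genes were on centred values higher in tissue held ex vivo than in tissue in the living animal. The amounts ran from 1.34-fold for Egln1 to 14.9-fold for Hilpda, with Egln3 further apart against a dim in vivo signal. The comparison used the mean of both pieces of each animal, which is not part of the stretch contrast behind the choice of genes. Genes and comparisons were nonetheless chosen with earlier results of these data known, so it is not free of that choice. Differences are on the log2 scale after centring, from limma over all 22626 probes with Benjamini-Hochberg adjustment, with 4 ex vivo against 7 in vivo animals. All 10 genes were called higher ex vivo at an adjusted p under 0.05, where 38.5% of all probes were called higher and 30.8% lower. The calls for Egln1 and Bnip3 were lost on values as deposited and in stretched pieces alone. The median difference of the 10 genes was 1.51, against 0.07 over all probes. The setting, the animals and any difference in array processing cannot be told apart.

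The oxygen sensors come first. Egln3, the prolyl hydroxylase that is most strongly induced by HIF in many tissues, had the largest difference by the probe used. Its signal was 9.81, 9.37, 9.53 and 10.13 in the stretched ex vivo pieces of animals 1 to 4, against 9.96, 11.01, 10.79 and 10.48 in the shortened ones. In vivo it was dim, at 5.44 to 7.17 (median 6.35) in the 7 stretched pieces, against 5.26 to 6.08 (median 5.57) in the 7 shortened ones. The ex vivo and in vivo values were far apart, and within the ex vivo tissue animal 1's shortened piece was below the stretched piece of animal 4. Ex vivo minus in vivo, the centred difference was 4.66 ± 0.19 (SE, adjusted p = 5.73e-10). Its in vivo signal was about as low as the keratinocyte marker means there (5.22 to 6.24), and without a detection call in the files used the size of this difference is uncertain. The other Egln3 probe differed by 3.33, less than the 3.90 of Hilpda, so the rank of Egln3 depends on the probe.

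Egln1, the prolyl hydroxylase that sets HIF levels under normal oxygen, was bright in all groups and had the smallest difference. It measured 10.38, 10.09, 10.24 and 10.14 in the stretched ex vivo pieces of animals 1 to 4, against 10.40, 10.97, 10.92 and 10.56 in the shortened ones. In vivo it read 10.33 to 10.58 (median 10.50) in the 7 stretched pieces, against 10.34 to 10.67 (median 10.48) in the 7 shortened ones. On deposited values 3 of the 4 stretched ex vivo pieces lay below all in vivo ones. The centred difference between settings was 0.42 ± 0.07 (SE, adjusted p = 0.000155), while that without centring, -0.03, was not called (adjusted p = 0.701), nor was that in stretched pieces alone, 0.17 (adjusted p = 0.0800). Its other probe, which was dimmer, differed by 1.47 on centred values.

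Hilpda, whose product sits on lipid droplets and holds back lipid breakdown, was far brighter ex vivo. It measured 10.08, 10.07, 10.22 and 10.31 in the stretched ex vivo pieces of animals 1 to 4, against 10.80, 11.12, 11.43 and 10.91 in the shortened ones. In vivo its values were 6.82 to 7.54 (median 7.23) in the 7 stretched pieces, against 6.93 to 7.64 (median 7.00) in the 7 shortened ones. The lowest ex vivo value was above the highest in vivo one, and the stretched and shortened ex vivo groups did not overlap. Hilpda was 14.9-fold higher ex vivo, a difference of 3.90 ± 0.13 (SE, adjusted p = 1.14e-10).

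Vegfa, the secreted growth factor that draws new vessels, was higher ex vivo. Its signals were 9.65, 9.57, 9.91 and 10.19 in the stretched ex vivo pieces of animals 1 to 4, against 10.10, 10.67, 10.93 and 10.49 in the shortened ones. In living animals it measured 8.44 to 9.66 (median 9.28) in the 7 stretched pieces, against 8.31 to 9.45 (median 9.11) in the 7 shortened ones. The stretched and shortened groups overlapped in both settings, and on deposited values the stretched ex vivo pieces overlapped with in vivo ones. After centring the settings differed by 1.49 ± 0.20 (SE, adjusted p = 2.24e-05), or 2.81-fold.

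Ero1a, the oxidase that forms disulfide bonds in the endoplasmic reticulum, was also much higher ex vivo. It gave 11.76, 10.88, 11.41 and 11.44 in the stretched ex vivo pieces of animals 1 to 4, against 12.15, 12.82, 12.83 and 12.37 in the shortened ones. In vivo its values stayed within a narrow band, 9.0 to 9.23 (median 9.11) in the 7 stretched pieces, against 9.02 to 9.29 (median 9.13) in the 7 shortened ones. All 4 stretched ex vivo pieces were below all 4 shortened ones, and the in vivo groups overlapped almost entirely. Between settings Ero1a differed by 3.28 ± 0.07 (SE, adjusted p = 3.35e-12).

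P4ha1 encodes the catalytic subunit of collagen prolyl hydroxylase, which stabilizes the collagen triple helix in the same compartment. Signals were 10.74, 10.83, 10.66 and 10.61 in the stretched ex vivo pieces of animals 1 to 4, against 10.97, 11.09, 11.16 and 11.10 in the shortened ones. Those in vivo were 9.76 to 10.28 (median 10.04) in the 7 stretched pieces, against 10.07 to 10.53 (median 10.39) in the 7 shortened ones. The order of the 4 groups was ex vivo shortened, ex vivo stretched, in vivo shortened and in vivo stretched, and the in vivo groups overlapped. Its difference between settings was 1.14 ± 0.08 (SE, adjusted p = 1.08e-07).

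Bnip3, a mitochondrial receptor for mitophagy, had the largest adjusted p of the 10 genes between settings. The ex vivo values were 12.19, 11.85, 12.02 and 12.03 in the stretched ex vivo pieces of animals 1 to 4, against 12.29, 12.77, 12.74 and 12.59 in the shortened ones. It was bright in living tissue too, at 10.39 to 12.60 (median 12.27) in the 7 stretched pieces, against 10.64 to 12.20 (median 11.91) in the 7 shortened ones. In vivo stretched pieces reached up into the range of the shortened ex vivo ones. The difference was 0.89 ± 0.29 (SE, adjusted p = 0.0162), and the call was lost on values as deposited (adjusted p = 0.188) and in stretched pieces alone (adjusted p = 0.313).

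Higd1a, a small protein of the inner mitochondrial membrane that binds the respiratory chain, gave the next values. They were 10.92, 10.54, 10.88 and 10.95 in the stretched ex vivo pieces of animals 1 to 4, against 11.09, 11.50, 11.71 and 11.49 in the shortened ones. In vivo they were 9.56 to 10.45 (median 10.32) in the 7 stretched pieces, against 9.33 to 10.43 (median 9.96) in the 7 shortened ones. Its settings differed by 1.53 ± 0.18 (SE, adjusted p = 8.61e-06). Fam162a is a mitochondrial protein linked to cell death in hypoxia. It was very bright ex vivo, with 12.13, 12.05, 11.99 and 12.04 in the stretched ex vivo pieces of animals 1 to 4, against 12.33, 12.73, 12.74 and 12.57 in the shortened ones. In vivo its level was 10.01 to 10.51 (median 10.39) in the 7 stretched pieces, against 9.92 to 10.55 (median 10.28) in the 7 shortened ones. The difference between settings was 2.48 ± 0.11 (SE, adjusted p = 9.49e-10). For both genes the stretched ex vivo pieces were all below the shortened ones, and all ex vivo pieces were above all in vivo ones.

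Ndrg1, a cytoplasmic protein induced by stress and in differentiating cells, was bright in all groups. Its signals were 11.95, 11.68, 11.74 and 11.84 in the stretched ex vivo pieces of animals 1 to 4, against 12.02, 12.31, 12.46 and 12.08 in the shortened ones. In vivo they were 11.05 to 11.74 (median 11.39) in the 7 stretched pieces, against 11.11 to 12.06 (median 11.72) in the 7 shortened ones. After centring, the ex vivo samples of Ndrg1 lay above all in vivo ones, though barely, with a lowest value of 4.82 against a highest of 4.71 above the sample median. The difference was 0.91 ± 0.10 (SE, adjusted p = 5.41e-06).

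**Figure D2:**
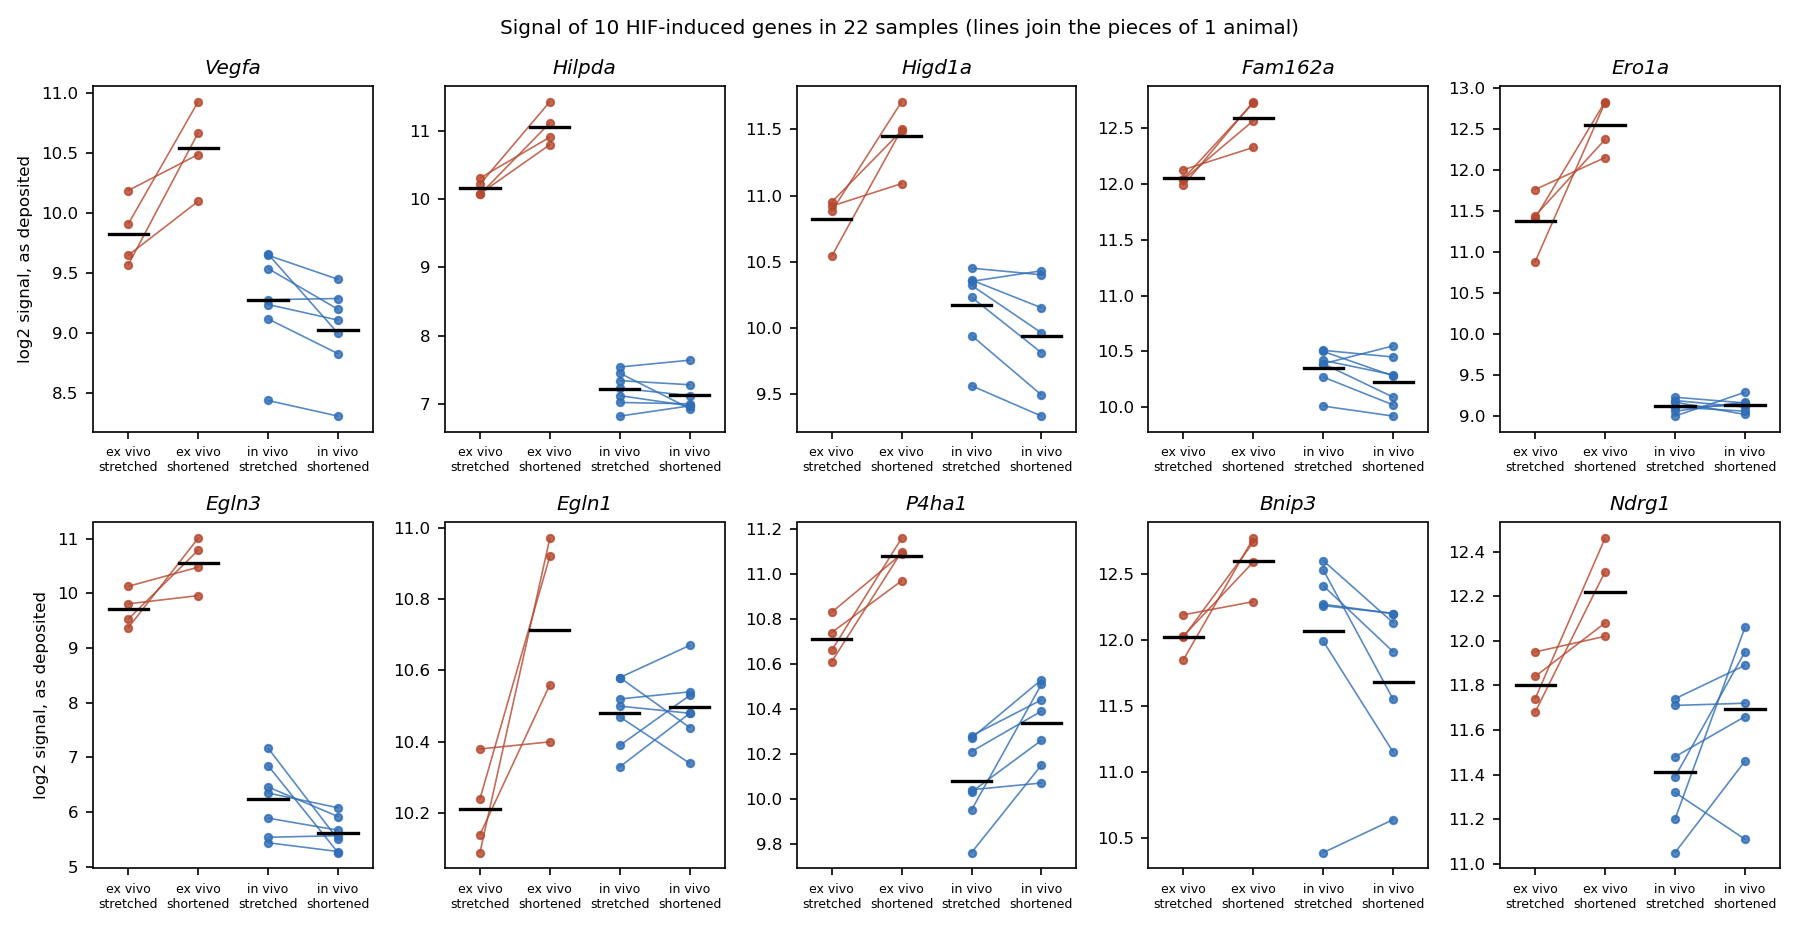
Log2 signal as deposited of the 10 genes in every sample, with a line joining the stretched and the shortened piece of 1 animal and a black bar at each group's mean. In ex vivo tissue (red) each line runs upward to the shortened piece, while in vivo lines (blue) run both ways.

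After centring, all ex vivo samples were above all in vivo samples for 8 of the 10 genes, where 21.4% of all probes met this. The exceptions were Egln1 and Bnip3. By piece, the sizes restate the stretch differences behind the choice of genes and are given as values alone. Ex vivo minus in vivo, the stretched pieces differed by a median of 1.09 over the 10 genes and the shortened pieces by a median of 1.98. Egln3 differed by 3.91 in stretched and 5.41 in shortened pieces, and Bnip3 by 0.40 in stretched and 1.38 in shortened pieces.

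**Figure D3:**
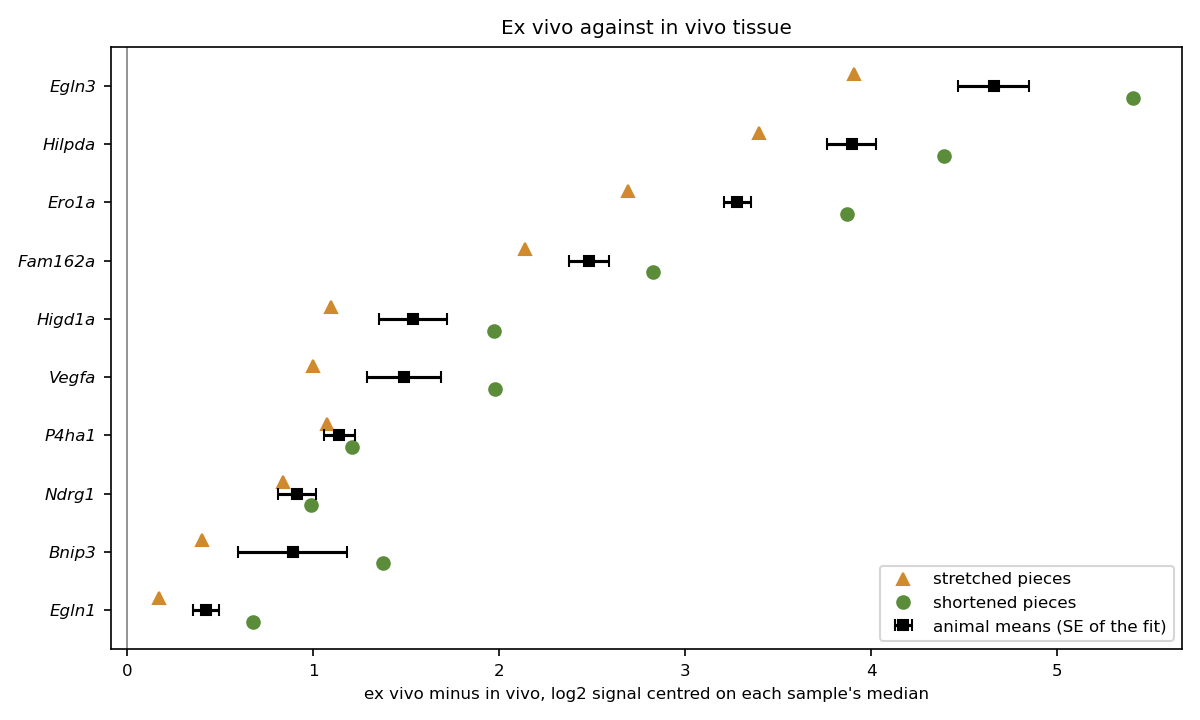
Ex vivo minus in vivo difference of each gene in log2 signal after centring on the sample median, for animal means (black squares, with the SE of the fit), stretched pieces (triangles) and shortened pieces (circles). All differences are above 0. The gap between triangles and circles is the contrast that helped to choose the genes.

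Cell type markers were compared between the settings too, where 38.5% of all probes were called higher ex vivo and 30.8% lower. Of 8 macrophage markers 7 were called lower ex vivo, with list means of 7.80 to 9.07 in ex vivo stretched and 8.25 to 9.20 in ex vivo shortened, against 11.45 to 12.08 in in vivo stretched and 11.61 to 12.12 in in vivo shortened pieces. The eighth was called higher. Adipocyte markers were called lower in 5 of 7, with list means of 8.66 to 9.45 in ex vivo stretched and 8.16 to 10.01 in ex vivo shortened, against 8.82 to 12.39 in in vivo stretched and 9.38 to 11.91 in in vivo shortened pieces. Fibroblast markers were called lower in 7 of 9 and higher in 1, and endothelial markers were called higher in 6 of 8. Of 8 keratinocyte markers 4 were called higher and 2 lower, near the shares of all probes. The 3 red blood cell markers measured were all called lower. Their list means were low, at 3.82 to 4.13 in ex vivo stretched and 3.86 to 4.29 in ex vivo shortened pieces. In vivo they were 4.77 to 6.26 in stretched and 5.07 to 5.95 in shortened pieces, so these calls rest on dim signals. Of 14 skeletal muscle markers 1 was called lower. All 10 genes were called higher ex vivo in fits with the muscle marker mean or the Gapdh difference as a covariate, and against in vivo animals 1 to 3 or 4 to 7 alone. The part of cell types, muscle among them, and of RNA breakdown in the result was not tested.

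Within ex vivo tissue all 10 genes were lower in the stretched than in the shortened piece, and in every animal. This contrast helped to choose the genes, so nothing is read from the count. Of all probes 49.6% had a difference below 0 and 9.32% were lower in 4 of 4 pairs. In limma 0% of probes were called at an adjusted p under 0.05, with 2508 of 22626 at an unadjusted p under 0.05. The differences, stretched minus shortened with the SD of 4 pairs, had a median of -0.60 and were largest for Ero1a (-1.17 ± 0.66), Hilpda (-0.89 ± 0.28) and Egln3 (-0.85 ± 0.71). They were smallest for P4ha1 (-0.37 ± 0.15), Ndrg1 (-0.41 ± 0.31) and Egln1 (-0.50 ± 0.37). Between these lay Vegfa (-0.72 ± 0.40), Higd1a (-0.62 ± 0.35), Bnip3 (-0.58 ± 0.34) and Fam162a (-0.54 ± 0.25). Stretched and shortened groups did not overlap for 8 genes, all but Vegfa and Egln3, where 3.19% of all probes had stretched pieces below shortened ones with no overlap.

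The animals differed in how far the genes were apart. Over the 10 genes the median difference was -0.18 in animal 1, -0.94 in animal 2, -0.79 in animal 3 and -0.51 in animal 4. Animal 2 gave the largest negative difference for 6 genes and animal 3 for 4, while animal 1 was closest to 0 for 8. In animal 1 the Gapdh difference between 3′ and 5′ probes was 0.91 in the stretched and 0.14 in the shortened piece, the widest gap among the ex vivo animals. Skeletal muscle markers differed by -0.48, 0.17, 5.16 and 5.53 in ex vivo animals 1 to 4. Over animals 1 and 2, the pairs without a muscle difference of that size, the mean was -0.88 for Hilpda, -0.90 for Egln3 and -1.17 for Ero1a, values of 2 pairs that carry no test.

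**Figure D4:**
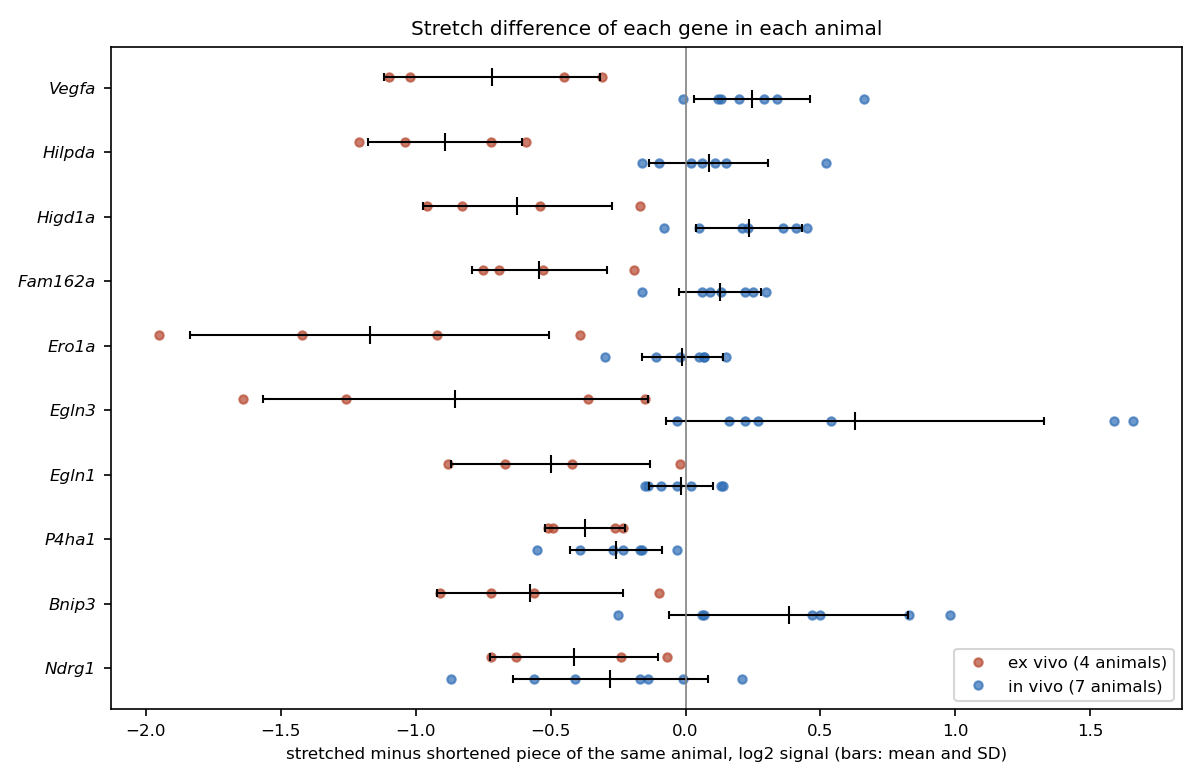
Stretched minus shortened difference in log2 signal for each gene and animal, ex vivo (4 animals, red) above in vivo (7 animals, blue), with black bars for the mean and SD. All ex vivo points are below 0, and in vivo points are on both sides except for P4ha1, which is below 0 in 7 of 7 animals.

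In living tissue the same genes went several ways. Mean differences were above 0 for 6 genes and below 0 for 4, where 43.7% of all probes were above 0 and 56.3% below. In limma 0% of probes were called, with 4373 at an unadjusted p under 0.05. Egln3 differed by 0.63 ± 0.70 (SD of 7 pairs), Bnip3 by 0.38 ± 0.44, Vegfa by 0.25 ± 0.22, Higd1a by 0.24 ± 0.20, Fam162a by 0.13 ± 0.15 and Hilpda by 0.09 ± 0.22. Each of the first 5 was higher in 6 of 7 animals, and Hilpda in 5, where 9.79% of all probes were higher in at least 6 animals. Ero1a (-0.01 ± 0.15) and Egln1 (-0.02 ± 0.12) had means near 0, smaller than their spread. P4ha1 (-0.26 ± 0.17) was lower in 7 of 7 animals and Ndrg1 (-0.28 ± 0.36) in 6 of 7, where 3.68% of all probes were lower in 7 animals and 16.4% in at least 6. The difference of the 2 stretch effects, which also helped to choose the genes, was called for 0.177% of probes and lower ex vivo for 0.128%. Probes of Vegfa, Hilpda, Higd1a and Fam162a are among these, which repeats the choice of genes and supports nothing, and under 22 alternatives they were called in 8, 9, 7 and 8, in that order. Thus, by the probe used, 6 genes were lower ex vivo and higher in vivo, the pattern behind their choice, which 20.1% of all probes shared. Of these 6, Egln3, Bnip3, Fam162a and Hilpda had in vivo means smaller than their SD. The other probes of Higd1a were below 0 in vivo. P4ha1 and Ndrg1 were lower in both settings.

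Egln3 showed the widest spread between living animals. Its differences were -0.03, 0.16, 1.59, 0.54, 1.66, 0.22 and 0.27 in animals 1 to 7, so animals 3 and 5 stood well above the others. Skeletal muscle markers in the same pairs differed by -0.07, 1.10, 1.69, -0.03, 5.86, 4.16 and 1.94. Of 14 muscle markers all 14 were higher in stretched tissue on average in both settings, 0 of them called. The muscle marker mean was 5.06 to 12.47 in in vivo stretched and 5.02 to 11.90 in in vivo shortened pieces. With that mean as a covariate the Egln3 difference was 0.28, against 0.37 for Bnip3, 0.29 for Vegfa and 0.24 for Higd1a. Without in vivo animals 5 and 6 Egln3 differed by 0.51.

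Bnip3 differed by -0.25, 0.83, 0.98, 0.50, 0.47, 0.07 and 0.06 in the 7 living animals. Vegfa gave 0.13, 0.29, 0.66, 0.34, 0.20, 0.12 and -0.01. Both were highest in animal 3 and low in animals 6 and 7. Adipocyte markers differed by -0.56, 1.04, 0.98, 0.51, 0.58, 0.01 and 0.33 in animals 1 to 7, and endothelial markers by -0.41, 0.69, 0.99, 0.55, 0.55, 0.37 and -0.32, and their part in the stretch differences was not tested. Within animals 1 to 3, those with a low Gapdh difference, the mean of Bnip3 was 0.52 and that of Vegfa 0.36, against 0.28 for Bnip3 and 0.16 for Vegfa within animals 4 to 7.

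**Figure D5:**
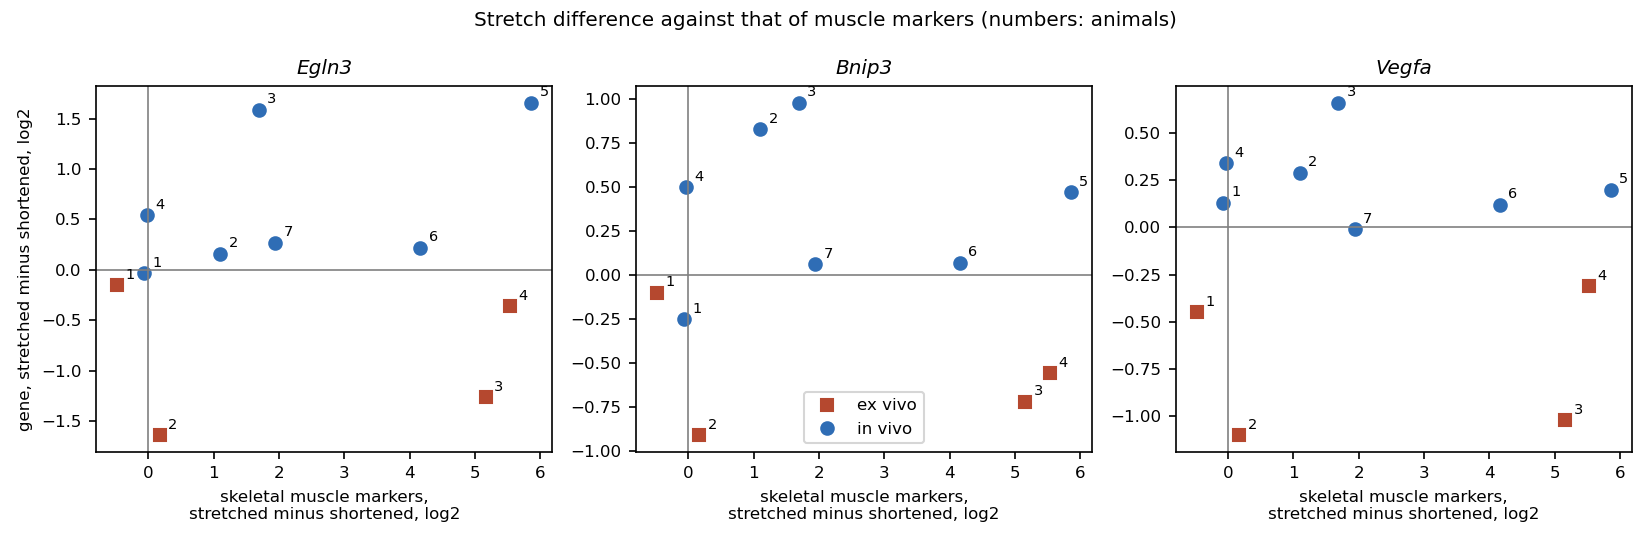
Stretched minus shortened difference of Egln3, Bnip3 and Vegfa against that of the mean of 14 skeletal muscle markers, both in log2 signal, with animals numbered, ex vivo as squares and in vivo as circles. Ex vivo animals 3 and 4 combine high muscle differences with gene differences below 0, while in vivo animal 5 has the highest muscle difference and the highest Egln3 difference.

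Other probes of these genes served as a further reading of the same RNA. There were 12 more single-gene probes for 7 of the genes. All 12 were lower in stretched ex vivo tissue in 4 of 4 animals, and 10 had the same sign in vivo as the probe used, the exceptions being 2 probes of Higd1a. Between settings 11 of 12 were called higher ex vivo, and a dim probe of Higd1a was not (-0.19, adjusted p = 0.191). Sizes differed between probes, since the other P4ha1 probe gave -0.98 for ex vivo stretch and 2.22 between settings, against -0.37 and 1.14 for the one used.

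Genes of the machinery that controls HIF were measured too. Of 15 listed subunits and regulators 12 were measured. In ex vivo stretch 7 were higher and 5 lower, with a median of 0.09, and 0 were called. Hif1a, the main alpha subunit, differed by 0.09 ± 0.07 ex vivo (SE) and by -0.08 ± 0.05 in vivo. Epas1, the alpha subunit prominent in endothelium, differed by 0.38 ± 0.12 ex vivo and 0.32 ± 0.12 in vivo. Arnt differed by -0.18 ± 0.12 ex vivo and -0.02 ± 0.06 in vivo, and Vhl by -0.37 ± 0.12 ex vivo and 0.09 ± 0.11 in vivo. Elob, a subunit of the VHL ligase, differed by 0.22 ± 0.09 ex vivo and 0.02 ± 0.03 in vivo. None of these passed the limma test over all probes in either setting or in the difference of the stretch effects.

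Between settings 6 of the 12 regulators were called higher ex vivo and 4 lower, where 38.5% of all probes were called higher and 30.8% lower, so these shares are near the background. Hif1a was higher by 1.25 ± 0.09 (SE, adjusted p = 7.22e-08), Epas1 by 0.60 ± 0.15 (adjusted p = 0.00262), Arnt by 1.37 ± 0.25 (adjusted p = 0.000292) and Vhl by 1.33 ± 0.16 (adjusted p = 1.05e-05). Egln2, the hydroxylase that HIF is not known to induce, was lower, with a difference of -0.58 ± 0.10 (adjusted p = 0.000135). Elob was lower too, with a difference of -0.36 ± 0.08 (adjusted p = 0.00166). On centred values Egln1 and Egln3 were higher, but Egln1 was not called on deposited values or in stretched pieces alone. The size of the Egln3 difference is uncertain.

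Other targets of the oxygen response outside glycolysis were mostly lower in stretched ex vivo tissue, 25 of 29 measured against 49.6% of all probes, with a median of -0.38 against 0.00 over all probes, and 0 were called. In vivo 12 were higher and 17 lower, with a median of -0.05, and again 0 were called. Kdm3a, a histone demethylase, differed by -0.70 ± 0.14 (SE) ex vivo and -0.12 ± 0.04 in vivo. Stc2, a secreted glycoprotein, differed by -0.69 ± 0.17 ex vivo and 0.20 ± 0.08 in vivo. Gbe1, the glycogen branching enzyme, differed by -0.58 ± 0.15 ex vivo and 0.27 ± 0.12 in vivo. These 3 were named for the smallest p in the difference of the stretch effects, so their signs are no evidence about the list. Between settings 23 of the 29 were called higher ex vivo and 4 lower, where 38.5% of all probes were called higher and 30.8% lower. Gbe1 was higher by 2.25 ± 0.24 (adjusted p = 3.87e-06), Kdm3a by 0.85 ± 0.11 (adjusted p = 2.30e-05) and Stc2 by 0.71 ± 0.16 (adjusted p = 0.00128). The 4 called lower, named after their values were seen, were Edn1 (-3.42 ± 0.23), Ddit4 (-1.50 ± 0.22), Rora (-0.77 ± 0.09) and Car9 (-0.33 ± 0.12).

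Glycolytic targets of HIF were lower in stretched ex vivo tissue in 14 of 15 measured genes, with a median of -0.33, where 49.6% of all probes were lower. They were higher in vivo in 11 of 15, with a median of 0.22, where 43.7% of all probes were higher. The skeletal muscle marker mean was also higher in stretched tissue, by 2.09 on average in vivo and 2.60 ex vivo. Its part in the differences of the glycolytic genes was not tested. None was called in either stretch comparison. Pgk1, which makes ATP in glycolysis, differed by -0.28 ± 0.08 (SE) ex vivo and 0.21 ± 0.08 in vivo. Pgam1, the next enzyme of the pathway, differed by -0.32 ± 0.05 ex vivo and 0.05 ± 0.05 in vivo. Pdk1, a kinase that keeps pyruvate out of mitochondria, differed by -0.66 ± 0.13 ex vivo and 0.10 ± 0.09 in vivo. Pgk1, Pgam1 and Pdk1 were named for the smallest p in the difference of the stretch effects, so their signs are no evidence about the list. Between settings 13 of 15 were called higher ex vivo and 0 lower, with a median of 1.21, where 38.5% of all probes were called higher and 30.8% lower.

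Of 9 ligands and receptors of the VEGF family measured, 4 were called higher ex vivo and 2 lower, near the background of 38.5% and 30.8% of all probes. The placental growth factor gene Pgf was higher by 2.55 ± 0.14 (SE, adjusted p = 6.08e-09) and differed by -0.78 ± 0.22 with ex vivo stretch, lower in 4 of 4 animals, and by -0.08 ± 0.07 with in vivo stretch. Vegfb, a ligand of the same receptor as Pgf, differed by 0.03 ± 0.16 between settings (adjusted p = 0.877), by -0.09 ± 0.10 with ex vivo stretch and by 0.39 ± 0.11 with in vivo stretch. Vegfd, a lymphatic growth factor, was higher ex vivo by 0.73 ± 0.12 (adjusted p = 0.000174). With stretch it differed by 0.37 ± 0.19 ex vivo and -0.28 ± 0.06 in vivo. Pgf, Vegfb and Vegfd were named for the smallest p in the difference of the stretch effects, so their stretch signs are no evidence about the list.

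Relatives of the 10 genes by sequence or complex were compared as well. Of 9 measured, Egln2 and P4ha2 standing in other lists too, 7 were called lower ex vivo and 2 higher, with a median of -0.88, where 30.8% of all probes were called lower and 38.5% higher. The 2 called higher were P4ha2 (0.35 ± 0.09, SE, adjusted p = 0.00515) and P4hb (0.75 ± 0.08, adjusted p = 2.91e-06), the other catalytic and the shared subunit of collagen prolyl hydroxylase. Higd1b, a relative of Higd1a found in pericytes, was lower, with a difference of -1.12 ± 0.20 (adjusted p = 0.000264). With ex vivo stretch P4ha2 differed by -0.75 ± 0.18, P4hb by -0.31 ± 0.10 and Higd1b by -0.53 ± 0.15, none of them called. P4ha2, P4hb and Higd1b were likewise named for the smallest p in the difference of the stretch effects.

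The genes whose differences between animals were most like those of the 10 genes were sought among 8492 genes with a mean signal of at least 6. The measure was Pearson's r over 11 animals between stretched minus shortened differences, each centred on its setting's mean so that the average stretch difference played no part. The highest values belonged to Lonp1 (0.976), a protease of the mitochondrial matrix, Cavin2 (0.968), a coat protein of caveolae, Unc5b (0.966), a netrin receptor, Oxsr1 (0.962), an oxidative stress kinase, Slc2a3 (0.960), a glucose transporter, and Jmy (0.957), an actin regulator. These are the top of a ranking and carry no test. Between settings Lonp1 was higher ex vivo by 0.62 (adjusted p = 0.000489), Unc5b by 1.63, Oxsr1 by 0.67, Slc2a3 by 1.92 and Jmy by 0.98, all called, while Cavin2 was lower, with a difference of -4.17 (adjusted p = 1.90e-09).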

How the data were processed

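RNA of 22 samples of mouse subcutaneous tissue was extracted with Tri-Reagent and hybridised to arrays as biotin-labelled cRNA. RMA and affy are named in the submitters' processing notes, their versions not given in the sources used here. The deposited values are on the log2 scale, from 1.89 to 14.4. The number of arrays limits the precision. Samples were grouped by title and paired by number within a setting, as the series' design text describes both pieces as taken from each animal. In a check of the pairing, same-numbered samples' deviations from their group means correlated with r of 0.109 to 0.284 ex vivo and 0.385 to 0.867 in vivo. No 2 samples held identical values.

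Of 22690 probes 64 controls were left out. Symbols came from the supplied probe table (20380 probes with 1 gene, 691 with several, 1555 with none). Stretched minus shortened tissue was compared by limma (version 3.58.1, R 4.3.3; mean-variance trend, animal as a block), within each setting and as a difference between settings, and animal means between settings on values centred on sample medians, all two-sided with Benjamini-Hochberg adjustment over 22626 probes at 0.05. The fits were tested on simulated data.

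Besides the 10 genes, 5 gene lists and 7 marker lists were used. The genes, lists and comparisons were chosen with earlier results of these data known. All 10 genes were named; of each other list the 3 members with the smallest p in the difference of stretch effects were named, with Hif1a, Epas1, Arnt, Vhl and Egln2, and the 6 genes most like the 10. Alternatives changed the normalization, centring, trend, eBayes, array weights, probe filter, probes of a gene, covariates, block and animals. Promoters came from RefSeq on GRCm38.p6.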

Additional observations from a re-analysis of the deposited data

Results flagged for a closer look

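In 60 checks of single groups or sets of pairs of the 10 genes, 2 samples lay farther from the others of their group than Dixon's critical value at the 95% level allows, and chance flags about 1 in 20 such groups. Bnip3 measured 10.39 in the stretched in vivo piece of animal 1, and the nearest of the other 6 stretched pieces measured 11.99. That piece also had low skeletal muscle markers, with a mean of 5.06, and the part of this was not tested. Higd1a measured 10.54 in the stretched ex vivo piece of animal 2, and the nearest of the other 3 measured 10.88. Animal 2 also had the largest negative stretch difference of the 4 ex vivo animals in 6 of the 10 genes.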

How the results depend on the processing

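The animal-mean difference between settings was called for all 10 genes in 22 of 24 alternatives, and for 8 of them on values as deposited and in stretched samples alone. On values as deposited Egln1 turned to -0.028 and Bnip3 (0.44) lost its call, and in stretched samples alone Egln1 (0.17) and Bnip3 (0.40) lost theirs. Centring sets this, since sample medians differed by -0.45 between settings: of 15685 probes called, 8705 were higher ex vivo, against 4113 of 17141 on values as deposited. The count was 10394 among probes with a mean of at least 6 and 8760 with 1 value per gene, where fewer were tested, and 14623 to 16251 with 1 animal left out.

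With stretch, 0 probes were called in either setting under any alternative, the fits with no replicate block included and with 1 animal left out (0 to 0). All 10 genes stayed below 0 ex vivo in 15 of 15 alternatives, and in vivo Ero1a and Egln1 changed sign in some of 20. The difference of the stretch effects was called for 40 probes, 4 of them of the 10 genes, and was unstable: 5 with quantile normalization, 4 with no trend, 330 with array weights, 74 among probes with a mean of at least 6, 8 with the muscle covariate, 9 without muscle-rich pairs, 3 with no replicate block, so that the pairing of samples matters here, and 0 to 663 with 1 animal left out, the highest without ex vivo animal 1 and 0 without ex vivo animal 3 or in vivo animal 2. The cause was not tested. Of the 6 genes most like the 10, 1 was shared when differences were not centred.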

Other observations

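Other listed targets of the oxygen response also differed widely between settings. Those given here were picked after their values were seen. Ex vivo minus in vivo, the monocarboxylate transporter gene Slc16a3, which exports lactate, differed by 5.43 ± 0.11 (SE), the mitochondrial adenylate kinase gene Ak4 by 4.61 ± 0.13 and Slc2a1, a glucose transporter gene, by 3.86 ± 0.14, each on centred log2 values. With ex vivo stretch all 3 were lower in 4 of 4 animals. With in vivo stretch Slc16a3 was higher in 6 of 7 animals, Slc2a1 in 2 and Ak4 in 0. In vivo the Slc16a3 signal was dim, averaging 5.43 in stretched and 5.16 in shortened pieces, and so was that of Ak4, at 5.97 in stretched and 6.23 in shortened pieces, so the sizes of their differences between settings are uncertain.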
